A study of Mus musculus with 2 samples.

Results

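The replication-dependent histone genes encode the bulk of the H1, H2A, H2B, H3 and H4 proteins that package newly copied DNA. They were chosen here by symbol, as every gene of the count matrices whose name begins with Hist1h, Hist2h, Hist3h or Hist4h. Of 32285 genes, 67 fitted that rule, and 64 of them had at least 50 unique molecular identifiers (UMIs, 1 per captured transcript) over both matrices. They comprised 5 of 6 H1 symbols, 17 of 18 H2A, 17 of 18 H2B, all 12 H3 and all 13 H4. The 3 that fell short are genes known from the testis: Hist1h1t with 19 UMIs, Hist1h2ba with 1 UMI and Hist1h2aa with 0 UMIs, which allows a share of up to 0.0377% of cells with a UMI. Just inside the limit stood Hist2h3c2 with 86 UMIs, Hist2h3c1 with 97 and Hist1h2br with 103.

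The study profiled LSK cells (Lin-Sca1+ckit+), the bone marrow fraction that holds blood stem cells and multipotent progenitors, from ageing mice. IC mice were given Deferoxamine, an iron chelator, at 50 mg/kg, and Control mice the vehicle HBSS, in daily courses of 7 days every 4 weeks over 13 months, starting when the animals were about 6 months old. Each condition was 1 pool marked by its own hashtag antibody, and RNA and surface antibody tags were read from the same cells with a 10x Genomics 5′ kit after both pools had been mixed. The sources used here give neither the strain nor the number or sex of the mice per pool. With 1 pool per condition and no map from cells to mice, no difference between conditions could be tested. All 95% intervals cover counting error only.

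About 20000 cells had been sorted per sample, and the matrices held 4037 IC and 4026 Control barcodes. After filtering, 3998 IC cells and 3969 Control cells remained, with a median of 14456 gene UMIs per cell in IC and 13705 in Control. No barcode occurred in both matrices. Xist, which is transcribed from the inactive X chromosome of female cells, marked 897 IC and 1417 Control cells (Xist+ cells), and Y-linked UMIs marked 2542 IC and 1952 Control cells (Y+ cells). The sexes were thus present in unequal proportions, and histone values are also given within each. Levels are in CPM, histone or other UMIs scaled to the total gene UMIs of the same cells. The LSK markers Kit, Ly6a, Cd34 and Cd93 summed to 875 CPM in IC and 880.3 CPM in Control. The 3 B cell markers summed to 1.05 CPM in IC and 3.62 CPM in Control, and the 3 macrophage markers to 3.85 CPM in IC and 3.32 CPM in Control. The T or NK cell markers summed to 187.8 CPM in IC and 195.1 CPM in Control, of which Nkg7 had 178 and 185 CPM. The 4 erythroid markers summed to 87.7 CPM in IC and 309.9 CPM in Control. Of these, Hbb-bs had 13.3 CPM in IC and 190.4 CPM in Control, with a UMI in 5.10% of IC and 3.65% of Control cells. The part of all these markers in the histone values was not tested.

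As background, these genes are transcribed mainly while a cell replicates its DNA. Their mRNAs end in a stem-loop bound by SLBP instead of a poly(A) tail, and NPAT is the coactivator that switches on their transcription. The libraries were made from poly(A) RNA per the labels, so the values count the transcripts that this capture retained and not the whole pool of histone mRNA. Some histone genes, best known for the linker gene Hist1h1c, also make polyadenylated mRNA.

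The genes sit in clusters: 51 of the 64 members belong to Hist1 on chromosome 13, 10 to Hist2 on chromosome 3, 2 to Hist3 on chromosome 11 and 1, Hist4h4, lies on chromosome 6. RefSeq (GRCm38.p6) placed 66 of the 67 symbols and gave 62 promoter windows for 61 of them. The stretches below are the 150 bases before the annotated start, 5′ to 3′ on the gene's strand. One is shown for the most abundant member of each type that has a window, then for the H2A genes Hist1h2af and Hist3h2a, which lie far apart in the cell-cycle classes described further on. Capitals mark 5 motifs on either strand, which may overlap. The first is CCAAT, bound by NF-Y. The TATA box was searched as TATAAA and the octamer of H2B promoters as ATTTGCAT. The AC box of H1 genes was searched as AAACACA. The core of the site of HINFP, an H4 gene activator, was searched as GGTCCG. The stretches lie at chr13:23622559-23622708 on the minus strand for Hist1h1e, chr13:23571221-23571370 on the minus strand for Hist1h2ae, chr13:23571250-23571399 on the plus strand for Hist1h2bg, chr13:23562386-23562535 on the minus strand for Hist1h3e, chr13:23581418-23581567 on the plus strand for Hist1h4d, chr13:23533725-23533874 on the plus strand for Hist1h2af and chr11:58954535-58954684 on the plus strand for Hist3h2a.
Hist1h1e: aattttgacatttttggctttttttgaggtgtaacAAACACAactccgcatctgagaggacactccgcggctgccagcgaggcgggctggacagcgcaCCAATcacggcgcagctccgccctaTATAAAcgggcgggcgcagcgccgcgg
Hist1h2ae: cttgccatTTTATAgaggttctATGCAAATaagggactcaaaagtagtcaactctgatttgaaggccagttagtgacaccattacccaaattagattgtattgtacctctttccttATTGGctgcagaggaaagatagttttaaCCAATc
Hist1h2bg: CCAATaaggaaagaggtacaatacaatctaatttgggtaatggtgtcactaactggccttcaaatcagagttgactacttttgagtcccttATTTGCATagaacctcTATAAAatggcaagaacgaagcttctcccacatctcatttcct
Hist1h3e: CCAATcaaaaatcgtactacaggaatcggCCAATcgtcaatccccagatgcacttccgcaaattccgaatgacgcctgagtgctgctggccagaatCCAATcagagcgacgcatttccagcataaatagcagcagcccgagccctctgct
Hist1h4d: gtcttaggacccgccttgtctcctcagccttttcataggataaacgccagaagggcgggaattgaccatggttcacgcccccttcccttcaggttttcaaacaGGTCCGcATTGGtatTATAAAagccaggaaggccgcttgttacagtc
Hist1h2af: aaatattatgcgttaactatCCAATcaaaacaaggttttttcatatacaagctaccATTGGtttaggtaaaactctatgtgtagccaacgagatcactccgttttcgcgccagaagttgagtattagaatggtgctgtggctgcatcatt
Hist3h2a: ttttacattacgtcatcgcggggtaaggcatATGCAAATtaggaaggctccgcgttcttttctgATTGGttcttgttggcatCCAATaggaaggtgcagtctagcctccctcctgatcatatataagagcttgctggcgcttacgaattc

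In windows of 250 bases before to 50 after the start, CCAAT stood in 100% of the H1, H2A, H2B and H3 windows and in 25% of the H4 windows, against 37.4% of the 32851 windows of all genes. The HINFP core stood in 91.7% of H4 windows and 8.25% of all, and the AC box in 83.3% of H1 windows and 7.18% of all. The octamer stood in 41.2% of H2A windows, 41.2% of H2B windows and 1.74% of all, and these letters were in 0 of the H1, H3 and H4 windows. The TATA box stood in 56.5% of the histone windows and 13.6% of all. A match describes these letters and is no evidence of binding. H2A and H2B genes often stand head to head, so that their windows share bases: Hist1h2ae and Hist1h2bg, both printed above, start 180 bases apart on opposite strands.

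Together the histone members had 264617 UMIs in IC and 242208 UMIs in Control, or 3979 CPM in IC and 3830.0 CPM in Control. The log2 ratio of IC over Control was 0.05 (0.047 to 0.063). H2A genes supplied 38.8% in IC and 38.6% in Control of these UMIs, and H1 genes 28.8% in IC and 28.3% in Control. H2B genes supplied 11.6% in IC and 11.6% in Control, H3 genes 10.5% in IC and 11.01% in Control and H4 genes 10.4% in IC and 10.6% in Control. UMIs were counted at tagged 5′ ends and not divided by gene length, so these shares describe captured molecules. Each type differed by under 1 percentage point between the pools.

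**Figure D1:**
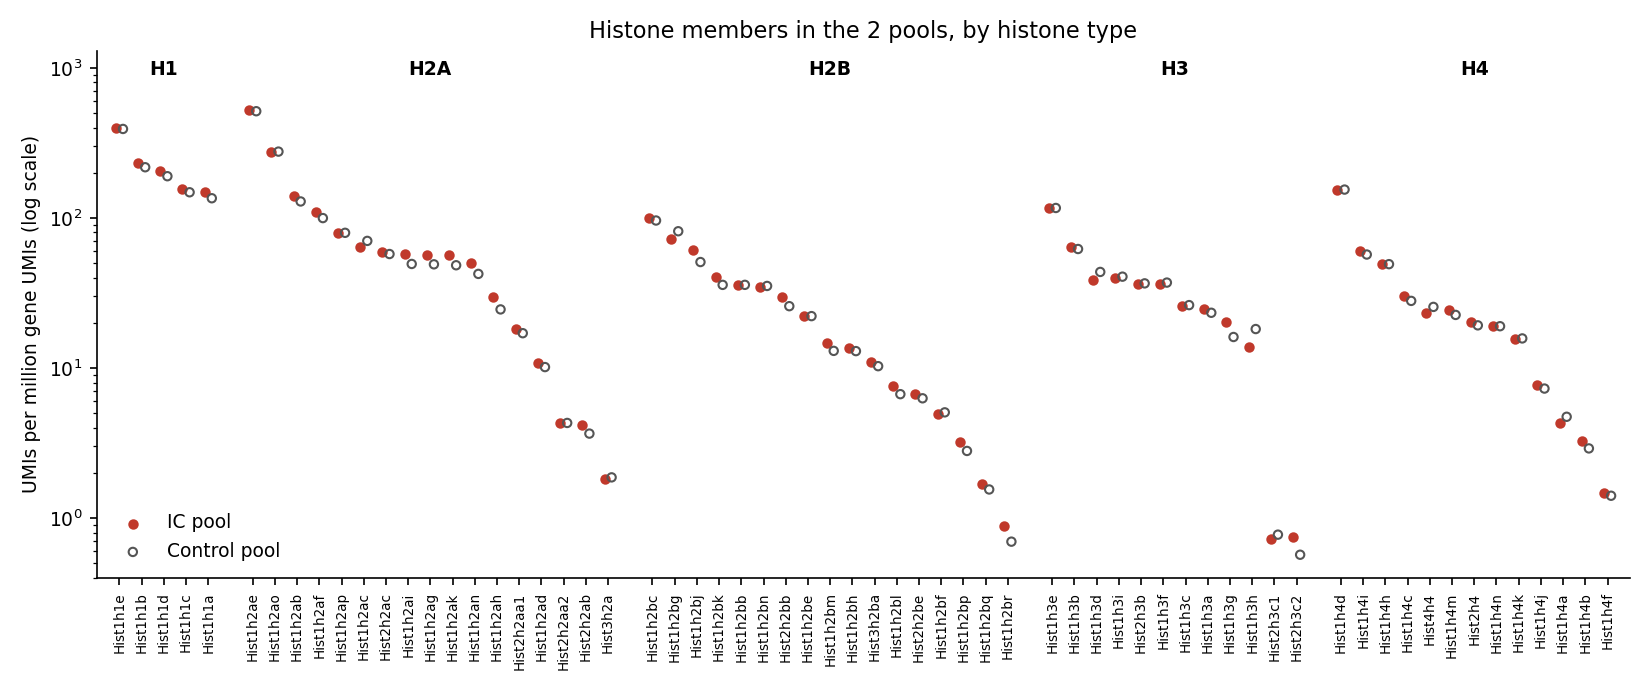
Level of each of the 64 histone members (CPM, log axis) in the IC pool and the Control pool, grouped by histone type; 1 pool per condition. The points of a member lie close together, as for Hist1h2ae at 527 CPM in IC and 514 CPM in Control.

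The linker histone H1, which binds DNA between nucleosomes, came from 5 members. Hist1h1e had 399 CPM in IC and 391.6 CPM in Control, and Hist1h1b had 234 CPM in IC and 218 CPM in Control. Hist1h1d had 206 CPM in IC and 189.6 CPM in Control, and Hist1h1c had 156 CPM in IC and 148 CPM in Control. All 5 members were higher in IC over all cells, against 49.1% of all genes with at least 50 UMIs. In Xist+ cells all 5 were lower in IC, and in Y+ cells all 5 were higher. The H1 sum was 1144 CPM in IC and 1082 CPM in Control, a log2 ratio of 0.08 (0.065 to 0.095), with -0.23 in Xist+ cells and 0.24 in Y+ cells.

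H2A pairs with H2B in the outer dimers of the nucleosome and had the most abundant member of all. Hist1h2ae reached 527 CPM in IC and 514 CPM in Control, and Hist1h2ao 276 CPM in IC and 277 CPM in Control. Hist1h2ab had 140.0 CPM in IC and 129 CPM in Control, and Hist1h2af 110.1 CPM in IC and 99.7 CPM in Control. Hist1h2ao and Hist1h2ap are near-identical copies, as are Hist2h2aa1 and Hist2h2aa2, so how reads were split between them is uncertain. The H2A sum was 1545 CPM in IC and 1477 CPM in Control, a log2 ratio of 0.07 (0.053 to 0.078), with -0.33 in Xist+ cells and 0.28 in Y+ cells.

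Among H2B members, Hist1h2bc led with 99.4 CPM in IC and 96.1 CPM in Control, and the interval of its ratio (-0.0014 to 0.10) included 0. Hist1h2bg had 72.9 CPM in IC and 81.5 CPM in Control. Hist1h2bj had 61.5 CPM in IC and 50.8 CPM in Control, and Hist1h2bk 40.4 CPM in IC and 35.8 CPM in Control. Hist1h2bg was thus lower in IC, and Hist1h2bj and Hist1h2bk were higher. The H2B sum was 461 CPM in IC and 442 CPM in Control, a log2 ratio of 0.06 (0.034 to 0.081), with -0.26 in Xist+ cells and 0.24 in Y+ cells. Hist1h2bq and Hist1h2br are near-identical copies whose split is uncertain, and the transcripts of Hist1h2bp were not compared with theirs.

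H3 and H4 form the tetramer at the centre of the nucleosome. The H3 sum was 416 CPM in IC and 422 CPM in Control, a log2 ratio of -0.02 (-0.043 to 0.0054), with -0.39 in Xist+ cells and 0.19 in Y+ cells. The H4 sum was 413 CPM in IC and 407 CPM in Control, a log2 ratio of 0.02 (-0.0048 to 0.044), with -0.34 in Xist+ cells and 0.22 in Y+ cells. Both pooled intervals include 0. Hist1h3e led the H3 genes with 116 CPM in IC and 116 CPM in Control. Hist1h3b had 63.7 CPM in IC and 62.0 CPM in Control, Hist1h3i 39.5 CPM in IC and 40.6 CPM in Control and Hist1h3d 38.3 CPM in IC and 43.6 CPM in Control. Of these H3 genes, Hist1h3d alone had an interval (-0.27 to -0.11) that left out 0. Hist1h4d led the H4 genes with 154 CPM in IC and 154 CPM in Control. Hist1h4i had 59.9 CPM in IC and 57.0 CPM in Control, Hist1h4h 49.7 CPM in IC and 49.2 CPM in Control and Hist1h4c 30.0 CPM in IC and 27.99 CPM in Control. Hist2h3c1 and Hist2h3c2, like Hist1h4m and Hist1h4n, are near-identical copies whose split is uncertain.

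Over single members, the log2 ratios of IC over Control had a median of 0.08 and ran from -0.40 to 0.40, with 45 of 64 above 0. Over all 14872 genes with at least 50 UMIs the median was -0.0015 and 49.1% lay above 0. At least 25% higher in IC were 3 of 64 members (Hist1h2br, Hist1h3g and Hist2h3c2), against 4.21% of all genes, and at least 20% lower (the same fold downwards) was 1 of 64, Hist1h3h, against 4.08%. These shares lie near or below the background. The intervals of Hist1h2br and Hist2h3c2, both under 1 CPM, include 0. Among members with at least 1000 UMIs, 1 of 49 was past this size higher and 1 of 49 lower, against 0.427% and 0.508% of all such genes.

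Among members with at least 200 UMIs, the highest ratio belonged to the H3 gene Hist1h3g, with 20.4 CPM in IC and 16.1 CPM in Control (log2 ratio 0.34, 0.22 to 0.46). It was followed by Hist1h2ah at 0.28, Hist1h2bj at 0.28, Hist1h2an at 0.23 and Hist1h2ai at 0.23. The lowest was the H3 gene Hist1h3h, with 13.8 CPM in IC and 18.2 CPM in Control (-0.40, -0.53 to -0.27), followed by Hist1h3d at -0.19, Hist1h2bg at -0.16, Hist1h2ac at -0.14 and Hist4h4 at -0.14. Hist1h3h was lower in IC in both sexes, at -0.55 in Xist+ and -0.27 in Y+ cells, and Hist1h3d was too, at -0.31 and -0.07, the Y+ interval including 0. Hist1h2ah had ratios above 0 in both, at 0.08 in Xist+ cells, where the interval includes 0, and 0.39 in Y+ cells. The other 7 of these 10 had opposite signs in the sexes, for example Hist1h2bg at -0.58 in Xist+ and 0.08 in Y+ cells.

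The sexes lay on opposite sides of the pooled value. In Xist+ cells the histone sum was 3574 CPM in IC and 4409 CPM in Control, a log2 ratio of -0.30 (-0.318 to -0.288). In Y+ cells it was 4235 CPM in IC and 3569.6 CPM in Control, a log2 ratio of 0.25 (0.236 to 0.257). Hist1h2ae had a ratio of -0.44 in Xist+ and 0.29 in Y+ cells, and Hist1h1b -0.32 and 0.38. With both sexes weighted equally the ratio was -0.03. The difference between the sexes was not tested, and sex and individual mice cannot be told apart here.

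Across members the median was -0.28 in Xist+ cells and 0.25 in Y+ cells, and 52 of 64 members had opposite signs, against 53% of all genes with at least 50 UMIs. In Xist+ cells 18 of 49 members with at least 1000 UMIs were at least 20% lower in IC, against 1.71% of all such genes, and 0 of 49 were at least 25% higher, against 2.32%. In Y+ cells 12 of 49 were at least 25% higher, against 0.752%, and 0 of 49 at least 20% lower, against 0.742%. Over all genes with at least 1000 UMIs the medians were -0.0058 in Xist+ and -0.01 in Y+ cells. Hist3h2a ran the other way, at 0.25 in Xist+ and -0.17 in Y+ cells, on 240 UMIs in all.

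**Figure D2:**
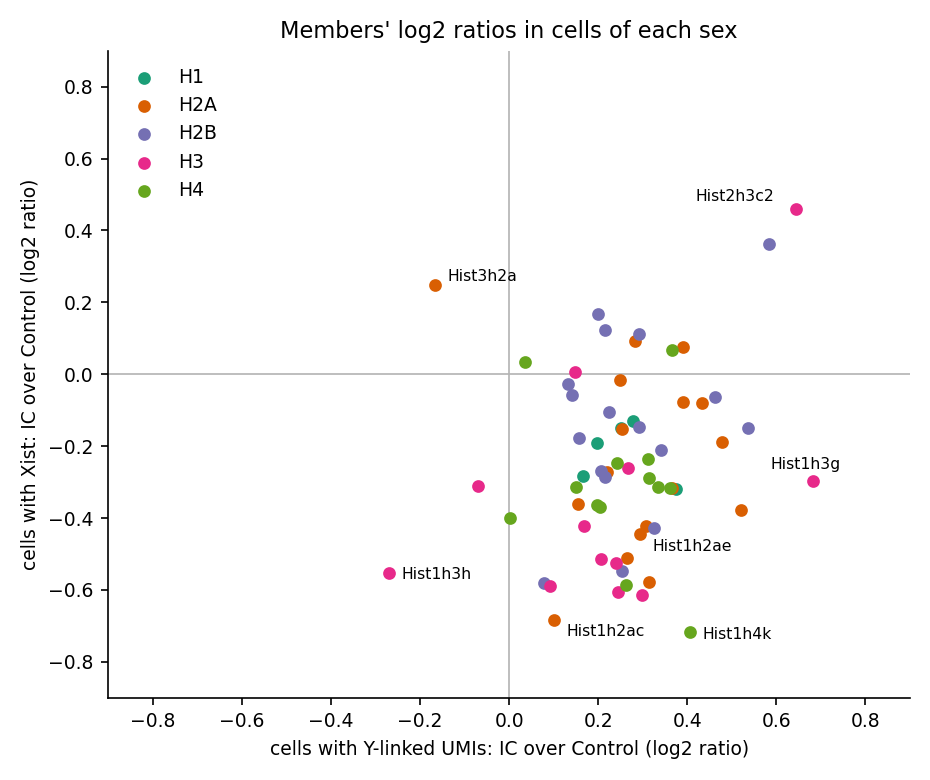
Log2 ratio of IC over Control of each member in the 2 sets of cells told apart by Xist and Y-linked UMIs, coloured by histone type; UMIs were summed per pool. Hist1h2ae, at -0.44 in Xist+ and 0.29 in Y+ cells, lies with the 52 members of opposite sign, and Hist1h3h is below 0 in both.

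Which cells carried the transcripts was read from scores for S phase (43 genes) and for G2 and M phase (54 genes) that contain no histone gene, computed after thinning each cell to 5000 UMIs. A cell was placed in the class of its higher score when that score was above 0, and otherwise in neither. The histone sum was 9097 CPM in IC and 9393 CPM in Control in the G2M class, 3545 CPM in IC and 3161 CPM in Control in the S class and 1168 CPM in IC and 1199.9 CPM in Control in the neither class. The S class thus exceeded the neither class by 1.60 on the log2 scale in IC and 1.40 in Control. The classes differ in depth: the median cell had 20040 gene UMIs in the S class, 24884 in the G2M class and 12092 in the neither class in IC, and 19152, 24688 and 11738 in Control.

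Neither the S class nor the G2M class was uniform. The G2M class held 670 IC and 607 Control cells, of which 358 and 305 had the G2M score alone above 0. In a split chosen after these values were seen, cells with both scores above 0 had 8968 CPM in IC and 8549 CPM in Control of histone UMIs, and cells with the G2M score alone 6369.6 CPM in IC and 7163 CPM in Control. Cells with the S score alone had 905 CPM in IC and 928 CPM in Control, below the level of cells with neither score. The replication factors Pcna and Mcm6 ran differently over both pools: Pcna had 245 CPM in the S class and 115 CPM in the G2M class, and Mcm6 532 CPM and 190.5 CPM. Both are genes of the S list, so their order is not independent of the classes. Not every gene of that list ran so: Rrm1 had 229 CPM in the S class and 235 CPM in the G2M class.

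**Figure D3:**
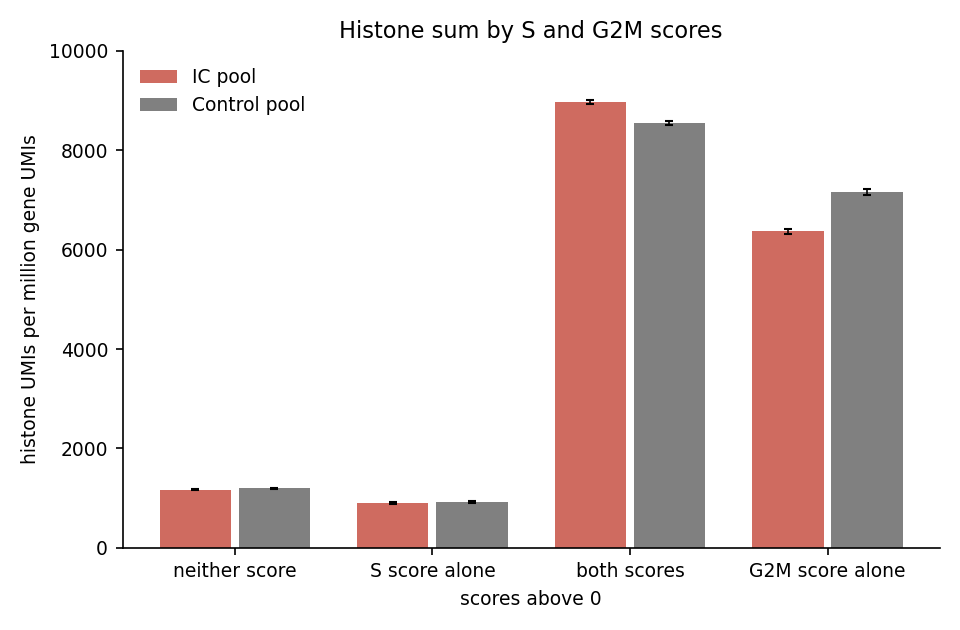
Summed histone level in CPM in IC and Control cells by which scores lay above 0; bars start at 0 and error bars are 95% Poisson intervals of the UMI sum, 1 pool per condition. Cells with both scores reach 8968 CPM in IC and 8549 CPM in Control, and cells with the S score alone 905 CPM in IC and 928 CPM in Control.

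All 64 members were higher in the G2M class than in the neither class, against 42.1% of all genes, and all 64 were higher in the G2M class than in the S class, against 48.6%. At least 2-fold above the neither class were 61 of 64 members in the G2M class, against 6.3% of all genes, and at least 2-fold below it 0 of 64, against 15.5%. In the S class 47 of 64 were at least 2-fold above the neither class, against 6.13% of all genes, and 3 of 64 (Hist1h2bc, Hist3h2a and Hist3h2ba) at least 2-fold below it, against 12.1%. Both comparisons with the neither class use the same neither-class cells. The G2M class also holds cells whose S score was above 0.

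Members differed widely in this. Over both pools Hist1h2af had 81.4 CPM in the S class, 310.5 CPM in the G2M class and 1.65 CPM in the neither class, which held 0.662% of its UMIs. The highest log2 ratios of S over neither were 5.63 for Hist1h3g, 5.62 for Hist1h2af, 5.16 for Hist1h2ah, 4.72 for Hist1h2ag and 4.61 for Hist1h3b. At the other end, the H2B gene Hist1h2bc had 46.1 CPM in the S class, 141 CPM in the G2M class and 112 CPM in the neither class, which held 48.4% of its UMIs.

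The lowest ratios of S over neither were -1.32 for Hist3h2ba, -1.28 for Hist1h2bc, -1.21 for Hist3h2a, -0.33 for Hist2h2aa2 (-0.69 to 0.02) and -0.30 for Hist1h1c. Both Hist3 members, neighbours on chromosome 11, were among them. In all, 8 of 64 members were lower in the S class than in the neither class, 7 of them in both pools, against 59.9% of all genes with at least 50 UMIs (both pools summed). They were 1 H1, 3 H2A and 4 H2B members, and 0 of the H3 and H4 genes. The lowest among those was Hist4h4 at 0.48. The H1 genes ran from -0.30 for Hist1h1c to 4.45 for Hist1h1b.

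**Figure D4:**
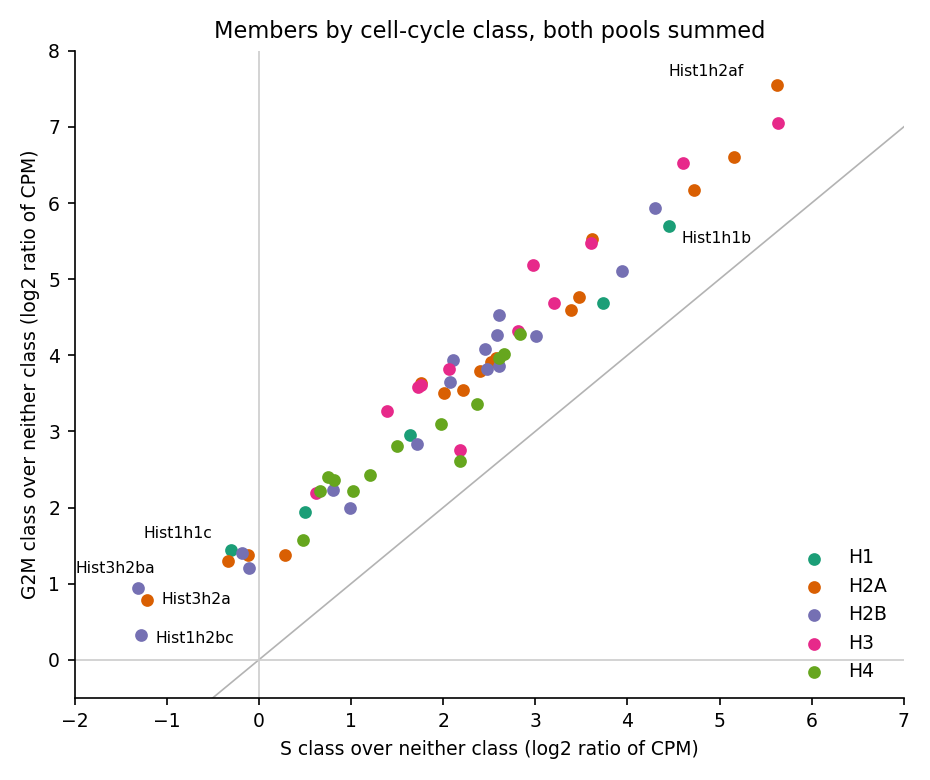
Log2 ratio of CPM over the neither class in the S class and in the G2M class for the 64 members, both pools summed, coloured by histone type; both axes share the neither-class cells. Members spread from Hist1h2bc, at -1.28 in the S class and 0.33 in the G2M class, to Hist1h2af, at 5.62 and 7.56.

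The mixture of types differed between classes. H2A genes gave 41.2% in IC and 41.3% in Control of histone UMIs in the G2M class, and 22.9% in IC and 24.6% in Control in the neither class. H1 genes gave 27.2% in IC and 26.5% in Control in the G2M class, and 35.6% in IC and 33.4% in Control in the neither class. H2B genes gave 10.7% in IC and 10.4% in Control in the G2M class, and 19.0% in IC and 19.4% in Control in the neither class. Across single cells of the S or G2M class, the summed UMIs of any 2 types had a Spearman rho of 0.79 to 0.87 in 1713 IC cells and 0.78 to 0.86 in 1597 Control cells. In the neither class rho was 0.21 to 0.44 in 2147 IC cells and 0.24 to 0.46 in 2213 Control cells. Cells of a pool share 1 library and types within a cell share its depth, so these are descriptions.

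Head-to-head H2A and H2B neighbours were set side by side. Hist1h2ah and Hist1h2bk, 178 bases apart, had log2 ratios of S over neither of 5.16 and 4.3. Hist1h2ag and Hist1h2bj had 4.72 and 3.0. The pair printed above was farther apart: Hist1h2ae had 2.01 and Hist1h2bg -0.11. For IC over Control, Hist1h2ae had 0.04 and Hist1h2bg -0.16, Hist1h2ag and Hist1h2bj 0.22 and 0.28, and Hist1h2ah and Hist1h2bk 0.28 and 0.17. The pairs shown have promoter windows, at least 50 UMIs per gene and both genes under the naming rules below. Other measured pairs are not shown, so these do not stand for neighbours in general.

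Stem and progenitor gates were set from the antibody tags CD135, CD48 and CD150. HSC were CD135-CD48-CD150+, MPP1 lacked all 3, MPP2 were CD135-CD48+CD150+, MPP3 CD135-CD48+CD150- and MPP4 CD135+CD150-. They held 1310, 565, 100, 614 and 1287 IC cells and 1163, 549, 91, 502 and 1509 Control cells. The histone sum was 2213 CPM in IC and 2691 CPM in Control in the HSC gate, 3033 CPM in IC and 2576 CPM in Control in MPP1, and 5976 CPM in IC and 5507 CPM in Control in MPP2. It was 5281 CPM in IC and 4613 CPM in Control in MPP3 and 4885 CPM in IC and 4506 CPM in Control in MPP4. MPP2 was highest in both pools, and the lowest gate was HSC in IC and MPP1 in Control. HSC was the lowest of the 5 gates for 58 of 64 members in IC and 31 of 64 in Control, against 27.6% of all genes in IC and 25.8% in Control.

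MPP3, the myeloid-biased progenitor gate, was above the HSC gate in both pools. Among members with at least 1000 UMIs, 39 of 49 were at least 2-fold higher in MPP3 in IC, against 5.74% of all such genes, and 0 of 49 at least 2-fold lower, against 6.5%. In Control 19 of 49 were higher, against 4.69%, and 0 of 49 lower, against 6.41%. Hist1h1b had 391 CPM in IC and 319 CPM in Control in MPP3, and 64.0 CPM in IC and 94.9 CPM in Control in the HSC gate. Hist1h1e differed less between the gates, with 459.5 CPM in IC and 403 CPM in Control in MPP3 and 318 CPM in IC and 361 CPM in Control in the HSC gate. Hist3h2ba was lower in MPP3 than in the HSC gate in both pools, with 10.7 CPM in IC and 7.996 CPM in Control in MPP3 and 12.4 CPM in IC and 11.6 CPM in Control in the HSC gate. The share of cells with neither score moved with the gate, at 28.01% in IC and 31.5% in Control in MPP3 and 78.4% in IC and 79.7% in Control in the HSC gate, and its part in the difference was not tested.

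Between IC and Control, the histone sum was lower in IC in the HSC gate and higher in the other 4 gates, with the classes, sexes and thresholds as they stood. The HSC gate gave a log2 ratio of -0.28 (-0.302 to -0.263). MPP1 gave 0.24 (0.208 to 0.264), MPP2 0.12 (0.082 to 0.154), MPP3 0.20 (0.178 to 0.213) and MPP4 0.12 (0.104 to 0.128). In the HSC gate all 5 types were lower in IC, with -0.25 for H1, -0.30 for H2A, -0.23 for H2B, -0.32 for H3 and -0.32 for H4. Among members with at least 1000 UMIs, 16 of 49 were at least 20% lower in IC in the HSC gate, against 1.57% of all such genes, and 2 of 49 (Hist1h2ah and Hist1h3g) at least 25% higher, against 1.19%. In MPP3 10 of 49 were at least 25% higher, against 3.53%, and 0 of 49 at least 20% lower, against 3.55%. With the 3 cycle classes weighted equally the HSC gate gave -0.13, MPP1 0.05 and MPP2 -0.20. With both sexes weighted equally MPP4 gave -0.02. MPP1 gave 0.03 with lowered gate thresholds and 0.03 without cells near a threshold, which are the same cells. The HSC gate was -0.17 with lowered thresholds. The difference between gates was not tested.

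In the HSC gate Hist1h2ae had 280.1 CPM in IC and 337 CPM in Control, Hist1h2af 46.1 CPM in IC and 70.5 CPM in Control and Hist1h3b 27.3 CPM in IC and 49.0 CPM in Control. Hist1h2bc, with much of its signal in neither-class cells, had 81.7 CPM in IC and 83.3 CPM in Control there. The HSC-gate sum was lower in IC in both sexes: it was 1998 CPM in IC and 3174 CPM in Control in Xist+ cells (log2 ratio -0.67, -0.704 to -0.632), and 2397 CPM in IC and 2487 CPM in Control in Y+ cells (-0.05, -0.079 to -0.028). Each of the other 4 gates had opposite signs. MPP1 gave -0.03 in Xist+ cells and 0.41 in Y+ cells, and MPP2 -0.15 in Xist+ cells and 0.80 in Y+ cells. MPP3 gave -0.08 in Xist+ cells and 0.35 in Y+ cells, and MPP4 -0.26 in Xist+ cells and 0.22 in Y+ cells. The MPP2 values rest on 40 IC and 49 Control Xist+ cells, and 43 IC and 29 Control Y+ cells. The MPP2 ratio changed sign when the gate thresholds were lowered (-0.12).

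**Figure D5:**
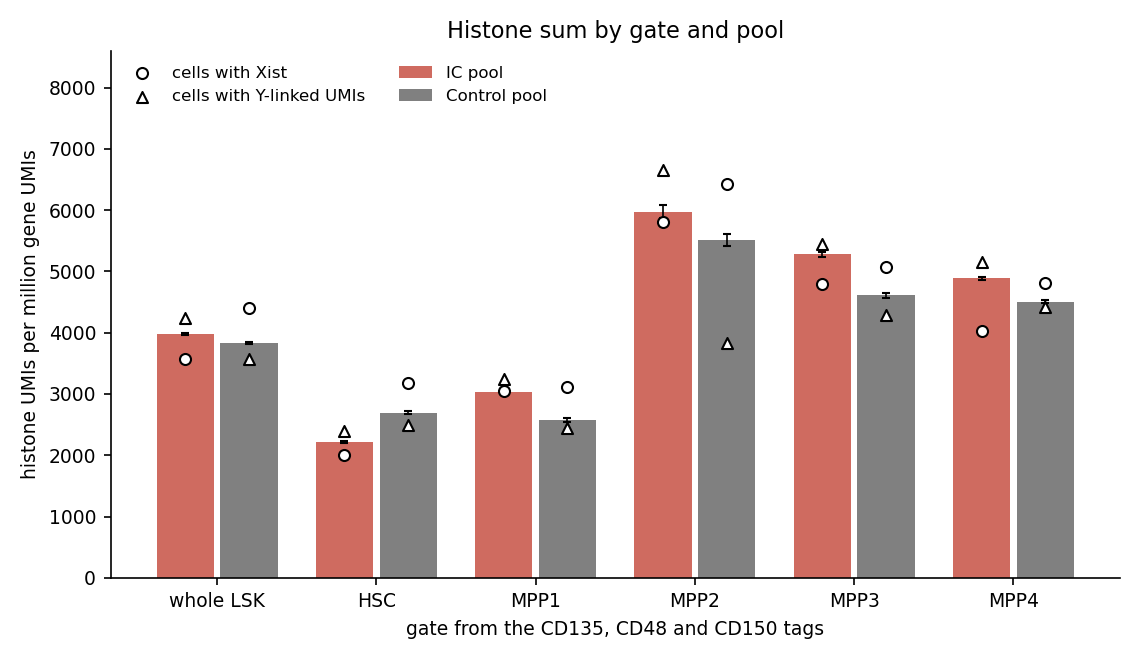
Summed histone level in CPM by gate in IC and Control cells, 1 pool per condition, with 95% Poisson intervals of the UMI sums and the values within each sex. In the HSC gate Xist+ cells had 1998 CPM in IC and 3174 CPM in Control, and Y+ cells 2397 CPM in IC and 2487 CPM in Control.

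Within the HSC gate, the levels in the G2M and neither classes were lower in IC. Of scored cells the G2M class held 6.45% in IC and 8.43% in Control (95% intervals 5.16 to 7.95 and 6.87 to 10.2), and the S class 15.2% in IC and 11.9% in Control (13.3 to 17.3 and 10.1 to 13.9); the intervals of the pools overlap for each class. Within the gate the histone sum was 8429.6 CPM in IC and 10269 CPM in Control in the G2M class, 3217 CPM in IC and 3147 CPM in Control in the S class and 933 CPM in IC and 1030.0 CPM in Control in the neither class, with log2 ratios of -0.28 (-0.313 to -0.256), 0.03 (-0.0072 to 0.071) and -0.14 (-0.179 to -0.106). The S-class interval includes 0. In MPP3 the G2M class held 30.2% in IC and 21.6% in Control, and its histone sum was 8861 CPM in IC and 9028 CPM in Control. In whole LSK the log2 ratio of IC over Control was 0.17 in the S class, -0.05 in the G2M class and -0.04 in the neither class.

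The class shares also moved with sex. The G2M class held 15.7% in IC and 18.3% in Control of Xist+ cells, and 18.8% in IC and 15.8% in Control of Y+ cells. Within the G2M class the histone sum was 8775 CPM in IC and 10218 CPM in Control in Xist+ cells, and 9266 CPM in IC and 8626 CPM in Control in Y+ cells. Within the neither class it was 988 CPM in IC and 1284 CPM in Control in Xist+ cells, and 1251 CPM in IC and 1192 CPM in Control in Y+ cells. Within both classes the sum was thus lower in IC in Xist+ cells and higher in IC in Y+ cells.

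A sum can come from few rich cells or from many. After thinning to 5000 UMIs, which left out 138 IC and 159 Control cells, 32.1% in IC and 31.5% in Control had at least 10 histone UMIs; without thinning the shares were 64.8% in IC and 64.1% in Control. The median cell had 5 histone UMIs in each pool. The richest 10% of cells held 61.2% of histone UMIs in IC and 63.3% in Control. The share with at least 10 histone UMIs was 84.5% in IC and 87.6% in Control in the G2M class, and 17.1% in IC and 18.4% in Control in the neither class. It was 16.6% in IC and 20.5% in Control in the HSC gate, and 49.6% in IC and 43.6% in Control in MPP3. Median depth before thinning was 13304 UMIs in IC and 12693 in Control in the HSC gate, and 18412 in IC and 18644 in Control in MPP3. By sex the share with at least 10 histone UMIs was 27.0% in IC and 36.5% in Control in Xist+ cells, and 34.7% in IC and 29.7% in Control in Y+ cells. In sums over a pool, fewer rich cells and less RNA per cell cannot be told apart.

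Other genes of the histone pathway were taken from 5 lists. Of 21 measured factors of histone mRNA synthesis and 3′ end processing, 0 were at least 25% higher or 20% lower in IC. The shares were 4.21% higher and 4.08% lower for all genes with at least 50 UMIs, and 0.427% and 0.508% with at least 1000. A count of 0 in a list this short lies near these shares, here and below. The median log2 ratio of the 21 factors was 0.02 (-0.01 in Xist+ and -0.0051 in Y+ cells). Slbp had 129 CPM in IC and 127 CPM in Control. Npat had 24.8 CPM in IC and 23.7 CPM in Control, and Cpsf2, a subunit of the cleavage complex, 77.8 CPM in IC and 82.2 CPM in Control. Slbp was highest in the S class over both pools, with 221 CPM, against 132 CPM in the G2M class; it also belongs to the S list.

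Of 22 histone chaperones and assembly factors, 0 were past these sizes, near the same shares, with a median of 0.04 (-0.02 in Xist+ and 0.04 in Y+ cells). Npm1, a nucleolar chaperone, had 1608 CPM in IC and 1601 CPM in Control, and Nap1l1, a chaperone of H2A and H2B, 348 CPM in IC and 336 CPM in Control. The 11 measured replication-independent histone genes, which supply chromatin outside S phase, had ratios above 0, as had 49.1% of all genes, with a median of 0.11 (-0.07 in Xist+ and 0.15 in Y+ cells), and 0 were past these sizes. The intervals of H3f3a, H2afj and H2afy2 include 0. H3f3b, encoding H3.3, had 1945 CPM in IC and 1741 CPM in Control, and H2afz 1507 CPM in IC and 1464 CPM in Control. H3f3b had 1457 CPM in the S class and 2091 CPM in the neither class over both pools, the reverse of most members.

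In the cell-cycle lists the median ratios of the sexes also lay on opposite sides of 0. The median over 43 S genes was 0.04 (-0.03 in Xist+ and 0.09 in Y+ cells), and over 54 G2 and M genes 0.10 (-0.12 in Xist+ and 0.12 in Y+ cells). In both lists 0 genes were past these sizes in whole LSK, near the shares of all genes given above. Mki67, a marker of proliferating cells, had ratios of -0.16 in Xist+ and 0.15 in Y+ cells, and Top2a -0.20 and 0.19. Both are G2 and M genes. Not all genes of the lists ran so: Pcna had 0.04 in Xist+ and 0.15 in Y+ cells, and Tubb4b -0.0042 and 0.05. The part of cycling in the histone differences was not tested beyond the class values given above.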

How the data were processed

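The authors deposited 1 matrix of raw UMI counts for each pool, covering genes, surface tags and hashtags. The submitters' processing notes name Cell Ranger 7.0.0, Seurat 4.3.0 and mm10, and the matrix header Cell Ranger 7.0.1. The annotation release and the counting of reads shared by near-identical copies are not stated there. Each matrix took the condition of the hashtag that led in most of its barcodes, with hashtags paired to conditions by the labels. That hashtag led in 4037 of 4037 IC and 4025 of 4026 Control barcodes.

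Filtering kept cells that had 500 genes or more and a mitochondrial share below 10%. No doublet caller was run; 52 IC and 35 Control cells with at least 2 Xist and 2 Y-linked UMIs stayed in and were left out in an alternative. Xist+ cells had at least 2 Xist UMIs and no Y-linked one, and Y+ cells at least 1 UMI from 4 Y-linked genes and no Xist. Each tag's centred log ratios were split by a mixture of 2 components to set the gates (thresholds -0.44 for CD135, 0.53 for CD48 and 1.56 for CD150); 33.0% of IC and 32.7% of Control cells lay within 0.25 of a threshold. Scores used 25 expression bins and 50 control genes per gene. UMIs were summed per pool and divided by total gene UMIs. Ratios carry exact conditional binomial, sums exact Poisson and shares exact Clopper-Pearson 95% intervals. The ratios were tested on simulated Poisson counts. These leave out the clustering of UMIs within cells, so that test cannot show whether the intervals cover it. Alternatives covered cell filters, scaling, thresholds, sexes, cycle classes and left-out cells or members.

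Genes named were the 4 members of each type with most UMIs, the 5 highest and 5 lowest ratios of IC over Control (intervals without 0) and of S over neither among members with at least 200 UMIs, the testis members, and genes among the 6 with most UMIs of each other list. Npat, H2afj, H2afy2, Hist1h2bp, Hist1h2ap and the other copies were named after their values were seen. The members, lists and rules were chosen with earlier results of these data known. Python 3.11.15, numpy 2.4.6, scipy 1.17.1, pandas 2.3.3 and scikit-learn 1.9.0 were used. Promoters and positions are RefSeq's.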

Additional observations from a re-analysis of the deposited data

Results flagged for a closer look

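Effects of opposite direction in the sexes drew attention, without a test of the difference, because each condition is 1 pool. The items include some with a value near 0 in 1 sex, such as the MPP1 sum, at -0.028 in Xist+ cells. Others are Hist4h4, at 0.0022 in Y+ cells, and Hist1h2af, at -0.015 in Xist+ cells. The log2 ratio of IC over Control in Y+ cells minus that in Xist+ cells was 0.55 for the histone sum in whole LSK, 0.43 in MPP1, 0.95 in MPP2, 0.43 in MPP3 and 0.48 in MPP4. By type it was 0.48 for H1, 0.61 for H2A, 0.49 for H2B, 0.58 for H3 and 0.56 for H4.

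Single members gave the same difference of ratios. In the H1 group it was 0.45 for Hist1h1e, 0.70 for Hist1h1b, 0.40 for Hist1h1d and 0.39 for Hist1h1c. In the H2A group it was 0.74 for Hist1h2ae, 0.52 for Hist1h2ao, 0.68 for Hist1h2ab, 0.26 for Hist1h2af, 0.90 for Hist1h2an, 0.47 for Hist1h2ai, 0.78 for Hist1h2ac, 0.67 for Hist1h2ag and 0.89 for Hist2h2aa2. Hist3h2a, at -0.41, was the 1 named member with the reverse order. In the H2B group it was 0.48 for Hist1h2bc, 0.66 for Hist1h2bg, 0.52 for Hist1h2bj, 0.33 for Hist1h2bk and 0.55 for Hist3h2ba. In the H3 group it was 0.72 for Hist1h3e, 0.77 for Hist1h3i and 0.98 for Hist1h3g, and in the H4 group 0.57 for Hist1h4d, 0.49 for Hist1h4i, 0.56 for Hist1h4h, 0.65 for Hist1h4c and 0.40 for Hist4h4.

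With all cells of each gate, the HSC gate ran against the other gates. The log2 ratio of IC over Control in another gate minus that in the HSC gate was 0.52 for MPP1, 0.40 for MPP2, 0.48 for MPP3 and 0.40 for MPP4. These differences were not tested either. In Xist+ cells every gate was below 0, at -0.67 in HSC, -0.03 in MPP1, -0.15 in MPP2, -0.08 in MPP3 and -0.26 in MPP4. MPP2 was also below 0 with lowered thresholds (-0.12) and with cycle classes weighted equally (-0.20). MPP4 was below 0 with both sexes weighted equally (-0.02).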

How the results depend on the processing

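Of 201 recomputed values, 116 stayed within the counting interval of the reported value (or within 1.5 times a count), and 85 did not. In all, 23 changed sign, 15 of them for results whose own interval left out 0; of the other 8, 7 left the interval or range of the reported value. Values here are log2 ratios of IC over Control unless said otherwise. In Xist+ cells alone they were -0.30 in whole LSK, -0.67 in HSC, -0.028 in MPP1, -0.15 in MPP2, -0.082 in MPP3, -0.26 in MPP4, -0.23 for H1, -0.33 for H2A, -0.26 for H2B, -0.39 for H3, -0.34 for H4 and -0.28 for the median member. There 24 members, in place of 4, were at least 25% higher or 20% lower, MPP3 over HSC was 0.67 in Control (0.78 with all cells), and the share of cells with at least 10 histone UMIs differed by -9.56 percentage points (0.55 with all cells, and -1.03 with a limit of 5 UMIs). In Y+ cells alone they were 0.25 in whole LSK, -0.053 in HSC, 0.41 in MPP1, 0.80 in MPP2, 0.35 in MPP3, 0.22 in MPP4, 0.24 for H1, 0.28 for H2A, 0.24 for H2B, 0.19 for H3, 0.22 for H4 and 0.25 for the median member. There 18 members were past that size, MPP3 over HSC was 1.19 in IC (1.26 with all cells), and the share differed by 4.998 percentage points. With both sexes weighted equally the values were -0.028 in whole LSK, -0.36 in HSC, 0.19 in MPP1, 0.32 in MPP2, 0.13 in MPP3, -0.019 in MPP4, 0.0038 for H1, -0.029 for H2A, -0.011 for H2B, -0.10 for H3 and -0.060 for H4. Without cells that hold both sex markers whole LSK gave 0.047. Without the 1% of cells richest in histone UMIs whole LSK gave 0.076, MPP1 0.38, MPP2 0.26, MPP3 0.25, MPP4 0.10, H1 0.10 and H3 0.064. With cycle classes weighted equally whole LSK gave 0.027, HSC -0.13, MPP1 0.054, MPP2 -0.20, MPP3 0.13, MPP4 0.13, H1 0.059, H2A 0.0043 and H4 -0.0058; this was not run for single members, since some had no ratio in a class. Gate thresholds moved up gave -0.23 in HSC, 0.17 in MPP1, 0.19 in MPP2 and 0.13 in MPP3, and 1.31 in IC and 0.95 in Control for MPP3 over HSC. Moved down they gave -0.17 in HSC, 0.027 in MPP1, -0.12 in MPP2, 0.25 in MPP3 and 0.13 in MPP4, and 1.22 in IC for MPP3 over HSC. Without cells near a threshold HSC gave -0.24, MPP1 0.027 and MPP2 0.28, and MPP3 over HSC 1.43 in IC and 0.99 in Control. Without Hist1h2ae MPP1 gave 0.20 and H2A 0.080. With members of at least 200 UMIs, 2 were past that size. The S class over the neither class, 1.51 with both pools, gave 1.44 without Hist1h2ae, 1.69 with a score threshold of 0.1, 1.55 with unthinned scores, 1.60 in IC alone and 1.40 in Control alone. Alternatives chosen after seeing the data gave 2.89 for cells with both scores and -0.37 for cells with the S score alone. The causes were not tested. The HSC gate was below 0 in all of its alternatives. No paired analysis was possible because each condition is 1 pool. Depth limits the 3 members under 1 CPM, whose intervals include 0, as do those of most of the 64 members.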
